A study of Mus musculus with 8 samples.

Results

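The NF-kB subunits Nfkb1, Nfkb2, Rela and Relb, the feedback regulators Nfkbia, Nfkbie, Tnfaip3 and Bcl3, and the adhesion molecules Icam1 and Vcam1 were followed through 8 microarrays. The members were chosen with earlier results of these data known, and every probe set whose symbol equals a member's was taken. This gave 20 probe sets for 10 genes, out of 45037 probe sets and 22657 symbols on the array. None of the 20 carries a second symbol. Nfkbia has 5 probe sets, Vcam1 has 4, Nfkb2, Nfkbie and Tnfaip3 have 2 each, and the other five genes have 1 each.

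All arrays were GeneChip Mouse Genome 430 2.0 and measured total RNA of CH310T1/2 cells, as the labels spell this mouse mesenchymal line, kept in micromass culture, a dense spot of cells in which cartilage can form. Every culture had been electroporated. The 4 groups hold 2 arrays each: control plasmid on day 0, Erg-010 driven by the CMV promoter on day 0, control plasmid on day 1, and Erg-010 driven by the Col2 promoter on day 1. Erg is a transcription factor of the ETS family. The Erg plasmids thus changed promoter with the day, and the contributions of promoter and day to a change in those cultures cannot be told apart. The arrays numbered 1 to 4 in the labels are those of day 0 and the others are those of day 1, so the day and the order of the arrays are likewise inseparable. Whether the paired arrays stem from different cultures is not stated in the labels, so the p-values reflect array-to-array spread that may be technical only.

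NF-kB is a family of dimeric transcription factors. In resting cells the dimers are held in the cytoplasm by IkB proteins. Signals from receptors for tumour necrosis factor, interleukin 1 or microbial products activate the IkB kinase, which marks IkB for destruction and frees the dimers to enter the nucleus. Several of the genes they switch on encode their own brakes, among them Nfkbia and Tnfaip3, and others encode adhesion molecules of the cell surface. The mRNA of these target genes is often read as a trace of pathway activity, but mRNA levels do not measure where the protein is or whether it binds DNA.

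The labels' cell type was set against marker lists. The 9 mesenchymal and fibroblast markers had mean levels of 11.6 to 12.6 on the log2 scale over the arrays, and none was below an array's first quartile on all 8 arrays. Array medians were 6.59 to 6.70 and first quartiles 5.26 to 5.38. Both Erg probe sets were read first as a check on the labels. With 1440244_at, the Erg level on day 0 was 7.30 and 7.61 in control cultures against 6.79 and 5.59 in the arrays labelled Erg, and on day 1 it was 8.43 and 8.50 against 8.53 and 7.68. Erg minus control gave -1.26 (SE 0.42, limma adjusted p = 0.802) at day 0 and -0.36 (SE 0.42, adjusted p = 1) at day 1, and 1425370_a_at gave -0.14 and -0.09. Erg mRNA was therefore not measured as higher in the arrays labelled Erg, and the files used here do not say whether either probe set lies in the plasmid's Erg-010 sequence. One library stood apart: over all probe sets the SD between the 2 Erg day 0 arrays was 0.611, against 0.233 to 0.335 in the other groups, and replicate 2 lay at -84.1 on the second principal component, where the other 7 arrays lay between -13.7 and 42.5. Results that rest on it are given with and without it.

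Promoter sequence is shown for those members whose window holds a match to an NF-kB motif, since these 5 are set beside their changes over the first day. The windows are the 250 bases before a RefSeq transcription start (build GRCm38.p6), and 7 of the 10 members had at least 1 window, 10 windows in all, with none for Nfkb1, Relb and Vcam1. A pair of motifs was searched on both strands: the 10-base kappa B consensus, and the 9-base form GGANTTTCC, which was added after values had been seen. Capitals mark the matches, with overlapping matches merged into 1 run, and each sequence is written 5′ to 3′ in the direction of the gene.
Nfkbia (chr12:55492648-55492897, minus strand): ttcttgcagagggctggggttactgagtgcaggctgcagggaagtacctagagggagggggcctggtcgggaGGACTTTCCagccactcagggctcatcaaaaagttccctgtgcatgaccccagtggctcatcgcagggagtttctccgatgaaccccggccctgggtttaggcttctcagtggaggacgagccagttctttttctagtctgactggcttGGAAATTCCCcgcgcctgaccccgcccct
Nfkbie (chr17:45555450-45555699, plus strand): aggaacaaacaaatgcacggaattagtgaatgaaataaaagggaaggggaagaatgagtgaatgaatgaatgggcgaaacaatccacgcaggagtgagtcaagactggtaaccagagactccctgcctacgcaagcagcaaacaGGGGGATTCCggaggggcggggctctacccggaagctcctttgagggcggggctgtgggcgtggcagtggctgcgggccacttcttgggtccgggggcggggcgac
Tnfaip3 (chr10:19015411-19015660, minus strand): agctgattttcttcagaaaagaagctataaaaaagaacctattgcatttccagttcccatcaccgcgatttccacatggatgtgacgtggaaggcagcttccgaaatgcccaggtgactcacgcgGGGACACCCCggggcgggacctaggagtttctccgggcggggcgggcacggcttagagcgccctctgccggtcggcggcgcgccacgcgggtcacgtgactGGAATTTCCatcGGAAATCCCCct
Nfkb2 (chr19:46304487-46304736, plus strand): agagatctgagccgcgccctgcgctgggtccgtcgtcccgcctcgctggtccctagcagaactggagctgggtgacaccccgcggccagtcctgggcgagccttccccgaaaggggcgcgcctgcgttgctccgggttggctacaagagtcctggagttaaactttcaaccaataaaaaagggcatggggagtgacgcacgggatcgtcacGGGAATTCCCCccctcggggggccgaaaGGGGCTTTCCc
Icam1 (chr9:21015690-21015939, plus strand): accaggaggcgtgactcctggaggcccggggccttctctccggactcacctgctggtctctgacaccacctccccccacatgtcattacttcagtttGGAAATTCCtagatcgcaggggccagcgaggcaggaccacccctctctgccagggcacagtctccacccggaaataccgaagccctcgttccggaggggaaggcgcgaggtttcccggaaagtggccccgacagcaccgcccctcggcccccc

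The kappa B consensus was present in 6 of the 10 member windows, in 4 of 7 genes (Nfkbia, Nfkbie, Tnfaip3 and Nfkb2), against 7.25% of all 32851 windows and 8.23% of all 27025 genes. Several of the 6 windows are alternative starts of Nfkb2, some partly overlap, and only 1 of them is shown. The 9-base form was present in 4 member windows, 1 each of Nfkbia, Tnfaip3, Nfkb2 and Icam1, against 1.07% of all windows. The Nfkb2 window with the 9-base form is not shown, and its match begins 224 bases before its start. In Nfkbia the match nearest the start begins 29 bases before it and belongs to both motifs, and a further match to the 9-base form begins 178 bases before it. In Tnfaip3 the matches begin 125, 24 and 12 bases before the start. The window shown for Nfkb2 holds 2 overlapping matches that begin 39 and 38 bases before the start, and another 11 bases before it. Nfkbie has its match 106 bases before the start and Icam1 has the 9-base form 153 bases before it. Neither motif was found in the windows of Rela and Bcl3. A match is a run of letters, not a measured binding site. Of the 4 genes with the consensus, Nfkbia, Nfkbie and Tnfaip3 fell over the first day in control cultures by the values below. The fall of Nfkb2 missed the threshold, as did that of Icam1, which has the 9-base form alone. Relb and Vcam1 also had calls below but have no window, so motif and fall cannot be set side by side for them.

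The first day of micromass culture with the control plasmid was the comparison in which most members moved, and all that passed the test moved down. Of the 20 member probe sets, 11 were lower on day 1 than on day 0 (limma, adjusted p under 0.05 after Benjamini-Hochberg adjustment over all 45037 probe sets), and 0 were higher. Among all probe sets 7.97% were lower and 11.8% were higher, set beside members chosen with earlier results of these data known. Read by the probe set with the highest mean, 9.26% of all 20680 symbols fell and 11% rose. By the same reading 4 of 10 member genes fell: the subunit Relb and the feedback regulators Nfkbia, Nfkbie and Tnfaip3. Vcam1 joined them through 2 of its other probe sets. The median difference of the members was -0.67 on the log2 scale over probe sets, against -0.11 over all probe sets. In 18 of the 20 both control arrays of day 1 lay below both of day 0, which 44% of all probe sets also did, and in 0 both lay above, as 28.7% of all did. Because each array reads RNA from a whole culture, fewer cells of a type and less RNA per cell cannot be told apart.

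**Figure D1:**
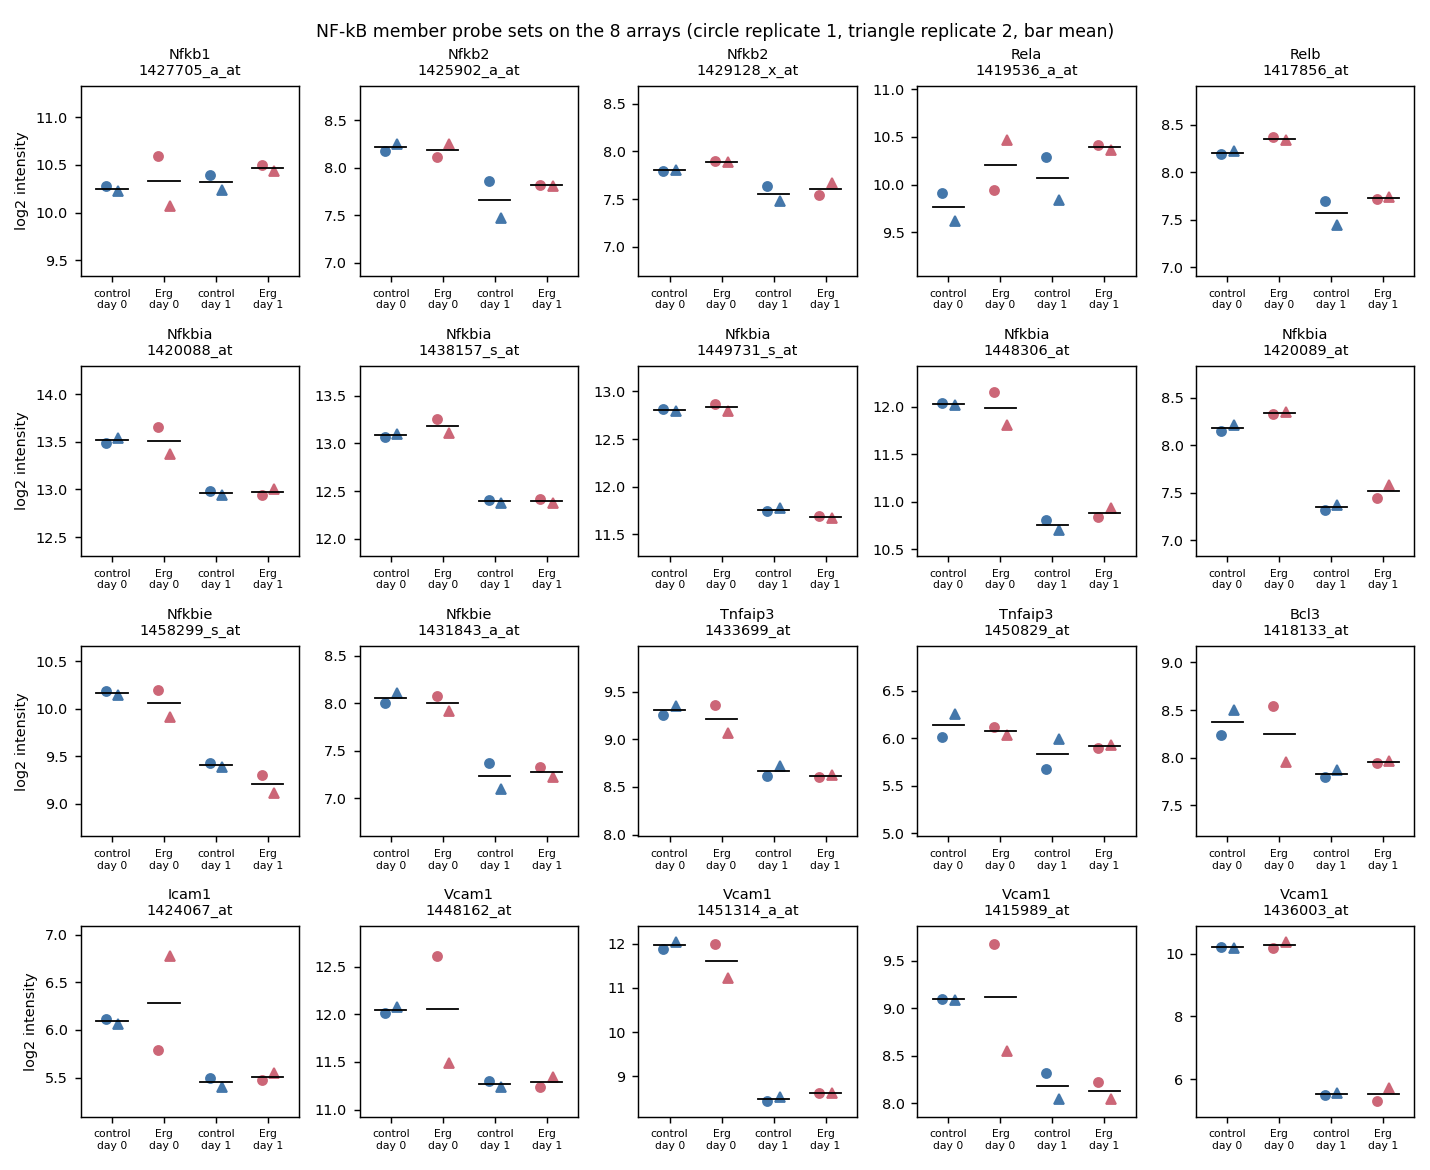
Log2 intensity (y axis) of the 20 member probe sets on the 8 arrays, in 4 groups on the x axis. Blue points are control plasmid arrays, red points are arrays labelled Erg, circles are replicate 1, triangles are replicate 2 and black bars are group means. Each panel has its own y range of at least 2 log2 units. In 17 panels every day 0 array lies above every day 1 array.

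Falls were also measured in cultures with the Erg plasmids, which share no array with the control cultures. There 9 of the 20 probe sets were lower on day 1 and 0 were higher (limma, adjusted p under 0.05), against 1.67% lower and 5.32% higher among all probe sets. All 9 were also among the 11 of the control cultures, and the other two were the Nfkbia probe set 1420088_at and the Tnfaip3 probe set 1433699_at. The median difference was -0.74 over the members and -0.06 over all probe sets. In 17 of 20 both Erg arrays of day 1 lay below both of day 0, as did 30.7% of all probe sets, and in 0 both lay above, as did 24.6% of all. The sign of the change was the same in both kinds of culture for 20 of 20 probe sets, negative in 18 and positive in 2. In 17 of them all 4 arrays of day 0 lay above all 4 of day 1, and 19.9% of all probe sets did so.

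These counts rested on few arrays, and the counts over all probe sets moved with them. Leaving out 1 array leaves a group with 1 array that is assumed to vary like the others. The main counts of 11 and 9 stand beside 19.8% and 6.99% of all probe sets called in either direction. For the control cultures, omitting replicate 1 of control day 0 left 3 lower members (1.8% of all probe sets called), omitting its replicate 2 left 2 (0.813%), and omitting control day 1 replicate 2 left 5 (6.63%). The Erg arrays of day 0 enter that comparison through the shared estimate of spread alone. Omitting either of them gave the same result, with more calls among the members and among all probe sets. For the Erg cultures the count was 5 without either control array of day 0 (1.78% of all), while omitting an Erg array of day 1 left 3 (replicate 1, 0.864%) or 2 (replicate 2, 0.233%). Omitting the Erg array of day 0 gave 10 (replicate 1, 23% of all) or 13 (replicate 2, 9.65%). With the 4 Erg arrays alone it was 1, the Vcam1 probe set 1436003_at, where 0.0511% of all were called and the other 8 member calls were lost.

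**Figure D2:**
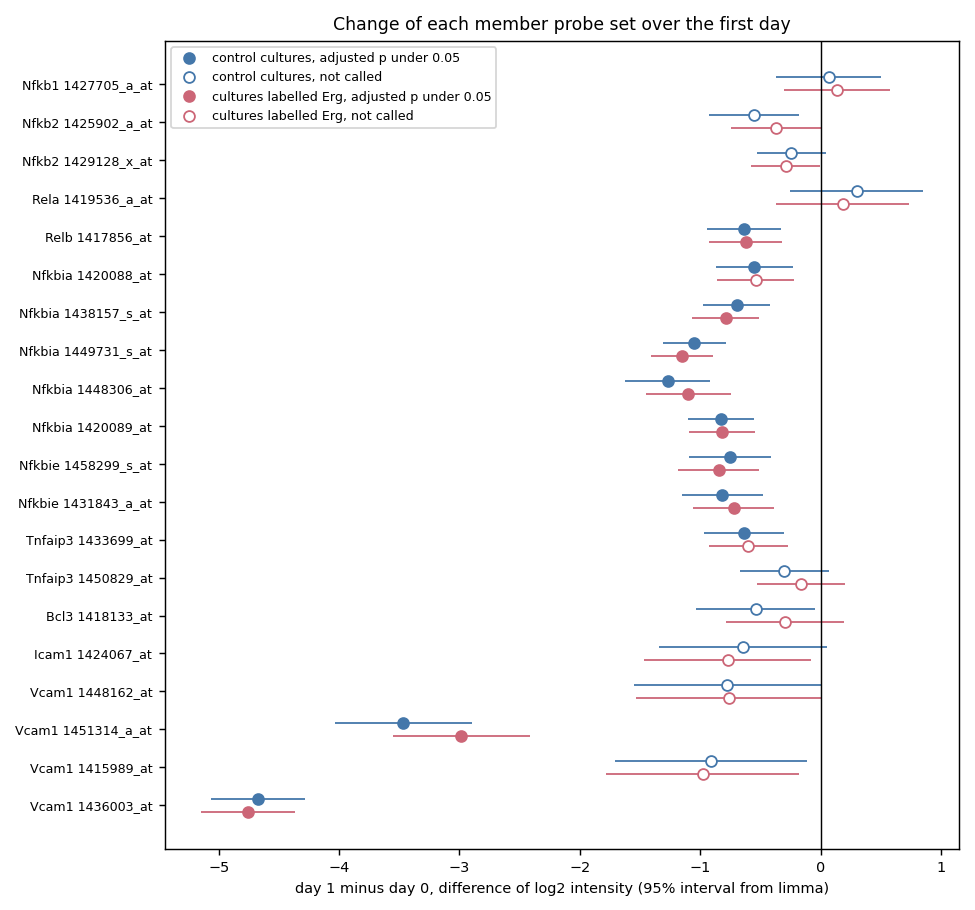
Difference of log2 intensity between day 1 and day 0 (x axis) for each member probe set (y axis), in control cultures (blue) and cultures labelled Erg (red). Bars are 95% intervals from limma, and filled points have an adjusted p under 0.05. Points left of 0 are lower on day 1; 18 of 20 probe sets lie left of 0 in both, and the Vcam1 probe sets 1451314_a_at and 1436003_at lie farthest left.

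The 4 subunits did not move together. Relb, the partner of p52 in the non-canonical branch of the pathway, had levels of 8.20 and 8.22 in control cultures and 8.37 and 8.34 in Erg cultures on day 0, and of 7.70 and 7.45 and then 7.72 and 7.74 on day 1. All 4 arrays of day 0 were above all 4 of day 1. Relb fell by 0.63 (SE 0.13, limma adjusted p = 0.0202) in control cultures, a 1.55-fold decrease, and fell by 0.62 (SE 0.13, adjusted p = 0.0391) in Erg cultures. The call in control cultures was lost without either control array of day 0 (differences -0.64 and -0.62), without control day 1 replicate 2 (-0.50) and without either Erg array of day 1 (-0.63). In Erg cultures it was lost without either control array of day 0 (-0.62) or either Erg array of day 1 (-0.61 and -0.63), and also with a replicate block, an intensity trend, array weights and the Erg arrays alone.

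Nfkb2 encodes the precursor of p52. Its probe set 1425902_a_at read 8.18 and 8.25 in control and 8.11 and 8.25 in Erg cultures on day 0, and 7.86 and 7.47 in control and 7.82 and 7.81 in Erg cultures on day 1. The groups of the 2 days did not overlap, but the differences of -0.55 (SE 0.16, limma adjusted p = 0.0517) in control and -0.37 (SE 0.16, adjusted p = 0.203) in Erg cultures missed the threshold. The control difference passed it without control day 1 replicate 1 (-0.75, adjusted p = 0.0376) and without either Erg array of day 0 (-0.55, adjusted p = 0.0292), and also with either further normalization and with array weights. The second probe set, 1429128_x_at, whose suffix Affymetrix gives to sets that may cross-hybridise, had differences of -0.24 and -0.29, and did not pass in either.

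Rela encodes p65, the main activating subunit of the canonical branch. Its levels were 9.92 and 9.61 in control and 9.95 and 10.46 in Erg cultures on day 0, and 10.29 and 9.84 in control and 10.42 and 10.36 in Erg cultures on day 1. The groups of the 2 days overlapped in both kinds of culture, with differences of 0.30 (SE 0.23, limma adjusted p = 0.373) and 0.18 (SE 0.23, adjusted p = 0.657). Nfkb1, which encodes the p105 precursor of p50, read 10.28 and 10.23 in control and 10.59 and 10.07 in Erg cultures on day 0, against 10.40 and 10.24 and then 10.50 and 10.44 on day 1. Its groups overlapped too, and its differences were 0.07 (SE 0.18, adjusted p = 0.813) and 0.14 (SE 0.18, adjusted p = 0.686). Without Erg day 0 replicate 1 the Rela difference in Erg cultures was -0.07, and without replicate 2 that of Nfkb1 was -0.13, so their signs rested on 1 array.

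Nfkbia encodes IkB alpha, the inhibitor that NF-kB itself induces and that is rebuilt after each round of activation. All 5 of its probe sets were lower on day 1 in control cultures and 4 of 5 in Erg cultures. The probe set with the highest mean, 1420088_at, read 13.49 and 13.54 in control and 13.65 and 13.37 in Erg cultures on day 0, and 12.99, 12.94, 12.95 and 13.00 on the 4 arrays of day 1. It fell by 0.55 (SE 0.13, limma adjusted p = 0.033) in control cultures, and its difference in Erg cultures was -0.54 (SE 0.13, adjusted p = 0.0618). The largest difference among the 5 in control cultures was that of 1448306_at, whose levels were 12.04 and 12.02 in control and 12.16 and 11.81 in Erg cultures on day 0, against 10.81 and 10.70 and then 10.84 and 10.94 on day 1. It fell by 1.27 (SE 0.15, adjusted p = 0.00496) and fell by 1.10 (SE 0.15, adjusted p = 0.013), a 2.41-fold and a 2.14-fold decrease. The days did not overlap for any of the 5.

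The other Nfkbia probe sets moved the same way, but the sets are not independent readings. The array's annotation aligns 1420088_at, 1449731_s_at and 1420089_at to the same positions of chromosome 12, and 1448306_at overlaps them. The probe set 1438157_s_at had differences of -0.70 in control and -0.79 in Erg cultures, and 1449731_s_at of -1.05 and -1.15 (limma adjusted p = 0.00393 and 0.00496), the latter from 12.81 and 12.80 to 11.74 and 11.77 in control cultures. The probe set 1420089_at had differences of -0.83 and -0.82, both past the threshold, but the array's annotation aligns it to the plus strand of chromosome 12, opposite to the gene, so what it reads is uncertain. Among the calls in control cultures, that of 1420088_at was lost without any 1 of the control arrays (differences -0.57 to -0.53) or of the Erg arrays of day 1 (-0.55), and also with a replicate block and with cyclic loess normalization. That of 1438157_s_at was lost without either control array of day 0 (-0.71 and -0.68) or control day 1 replicate 2 (-0.68), those of 1448306_at and 1420089_at without either control array of day 0 (-1.26 and -1.28, and -0.86 and -0.80), and that of 1449731_s_at without control day 0 replicate 2 (-1.06). In Erg cultures 1420088_at passed without Erg day 0 replicate 2 (-0.68, adjusted p = 0.027). There the calls of 1448306_at and 1420089_at were lost without either Erg array of day 1 (-1.05 and -1.15, and -0.76 and -0.89), that of 1438157_s_at without those (-0.81 and -0.77) or either control array of day 0 (-0.79), and that of 1449731_s_at without Erg day 1 replicate 2 (-1.14).

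Nfkbie encodes IkB epsilon, a second inducible inhibitor. Its probe set 1458299_s_at read 10.18 and 10.14 in control and 10.20 and 9.91 in Erg cultures on day 0, and 9.42 and 9.39 in control and 9.30 and 9.12 in Erg cultures on day 1. It fell by 0.75 (SE 0.14, limma adjusted p = 0.0166) and fell by 0.85 (SE 0.14, adjusted p = 0.0226). The other probe set, 1431843_a_at, also fell, with differences of -0.82 and -0.72, and both sets had every array of day 0 above every array of day 1. The control calls were lost without either control array of day 0 (-0.74 and -0.77 for the first set, -0.86 and -0.77 for the second) and without control day 1 replicate 2 (-0.74 and -0.68), and that of the first set also without control day 1 replicate 1 (-0.77). In Erg cultures both were lost without either control array of day 0 (-0.85 and -0.72) and without Erg day 1 replicate 1 (-0.94 and -0.77) or replicate 2 (-0.76 and -0.67), and with array weights or the Erg arrays alone. The call of 1431843_a_at was lost there with a replicate block and with an intensity trend too.

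Tnfaip3 encodes A20, a ubiquitin-editing enzyme that limits signalling upstream of the IkB kinase. Its probe set 1433699_at read 9.26 and 9.35 in control and 9.36 and 9.07 in Erg cultures on day 0, and 8.62 and 8.72 in control and 8.60 and 8.63 in Erg cultures on day 1, with no overlap between the days. It fell by 0.64 (SE 0.14, limma adjusted p = 0.0243) in control cultures, and the difference of -0.60 (SE 0.14, adjusted p = 0.0516) in Erg cultures was just outside the threshold. The control call was lost without any 1 of the control arrays (-0.69 to -0.58) or of the Erg arrays of day 1 (-0.64), and without Erg day 0 replicate 2 the Erg difference passed (-0.74, adjusted p = 0.0234). The second probe set, 1450829_at, was below the array median on all 8 arrays and had differences of -0.30 and -0.16 that did not pass.

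Bcl3 encodes an atypical IkB protein that binds p50 and p52 in the nucleus. Its levels were 8.24 and 8.50 in control and 8.55 and 7.95 in Erg cultures on day 0, and 7.80 and 7.87 in control and 7.95 and 7.96 in Erg cultures on day 1. The control arrays of the 2 days did not overlap, but Erg day 0 replicate 2 lay level with day 1. Its differences were -0.54 (SE 0.21, limma adjusted p = 0.109) and -0.29 (SE 0.21, adjusted p = 0.417). The first passed without either Erg array of day 0 (-0.54, adjusted p = 0.0187), as well as with array weights and with the control arrays alone. The second was -0.59 (adjusted p = 0.0625) without Erg day 0 replicate 2 and 0.0011 (adjusted p = 0.997) without replicate 1. Bcl3 and Relb are neighbours on chromosome 7, where the array's annotation (build not stated) puts 179022 bases between their alignments, and Relb passed the test.

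Vcam1 encodes a cell surface ligand for integrins of leukocytes and is a long-known target of NF-kB in endothelial cells. It held the largest falls of all members, but its 4 probe sets moved by very unequal amounts. The probe set 1436003_at read 10.22 and 10.18 in control and 10.19 and 10.37 in Erg cultures on day 0, and 5.50 and 5.55 in control and 5.31 and 5.73 in Erg cultures on day 1. On all 4 arrays of day 1 it was below the array's median and close to the first quartile, which was 5.27 to 5.30 there. It fell by 4.67 (SE 0.16, limma adjusted p = 0.000295) in control cultures, and in Erg cultures it fell by 4.76 (SE 0.16, adjusted p = 0.000195). These are 25.5-fold and 27.0-fold differences in RMA intensity, limited by how near the day 1 values lie to the dim end of the scale, and signal over background was not measured.

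The probe set 1451314_a_at read 11.89 and 12.04 in control and 12.00 and 11.23 in Erg cultures on day 0, and 8.45 and 8.54 in control and 8.63 and 8.63 in Erg cultures on day 1. It fell by 3.47 (SE 0.24, limma adjusted p = 0.00191) in control and fell by 2.98 (SE 0.24, adjusted p = 0.0034) in Erg cultures, decreases of 11.1-fold and 7.91-fold. In control cultures the calls of both sets held in all 17 settings run, including each array left out, where the highest adjusted p was 0.0127 for 1436003_at and 0.0381 for 1451314_a_at. In Erg cultures 1436003_at held in all 17 and 1451314_a_at in 16, with an adjusted p of 0.0689 in the Erg arrays alone.

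The other 2 Vcam1 probe sets moved much less. The one with the highest mean, 1448162_at, read 12.01 and 12.07 in control and 12.62 and 11.49 in Erg cultures on day 0, and 11.30 and 11.24 in control and 11.24 and 11.35 in Erg cultures on day 1. Its differences were -0.77 (SE 0.33, limma adjusted p = 0.133) and -0.76 (SE 0.33, adjusted p = 0.206), and those of 1415989_at were -0.91 (SE 0.34, adjusted p = 0.0984) and -0.98 (SE 0.34, adjusted p = 0.135). Every array of day 0 was above every array of day 1 in both sets, but the Erg arrays of day 0 lay far apart. The control differences of both sets passed without either of those arrays (adjusted p = 0.0035 and 0.00403). Without Erg day 0 replicate 2 the Erg differences were -1.32 (adjusted p = 0.00436) and -1.54 (adjusted p = 0.00497), and without replicate 1 they were -0.20 and -0.42.

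The array's annotation describes the sets differently. The transcript records it lists for 1451314_a_at include a truncated and a lipid-anchored form beside the full-length one, those for 1448162_at and 1415989_at are of the full-length form alone, and for 1436003_at no RefSeq mRNA is listed. On the minus strand of chromosome 3, in coordinates whose build is not stated, 1448162_at and 1415989_at align from 115812868 to 115832604, 1451314_a_at from 115825989 to 115832375, and 1436003_at from 115825192 to 115825861, within the span of the first pair. The difference on the log2 scale between 1451314_a_at and the mean of the full-length pair went from between 0.85 and 1.46 on the arrays of day 0 to between -1.36 and -1.07 on those of day 1, and that for 1436003_at from between -0.96 and 0.34 to between -4.42 and -3.97. This shows unequal change and is no comparison of levels between probe sets. The grouping was made after the values had been seen and was not tested, and whether the sets read different transcripts was not tested. Averaged over its 4 probe sets, Vcam1 fell by 2.46 (SE 0.22, limma adjusted p = 0.00307) in control cultures and fell by 2.37 (SE 0.22, adjusted p = 0.00447) in Erg cultures.

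**Figure D3:**
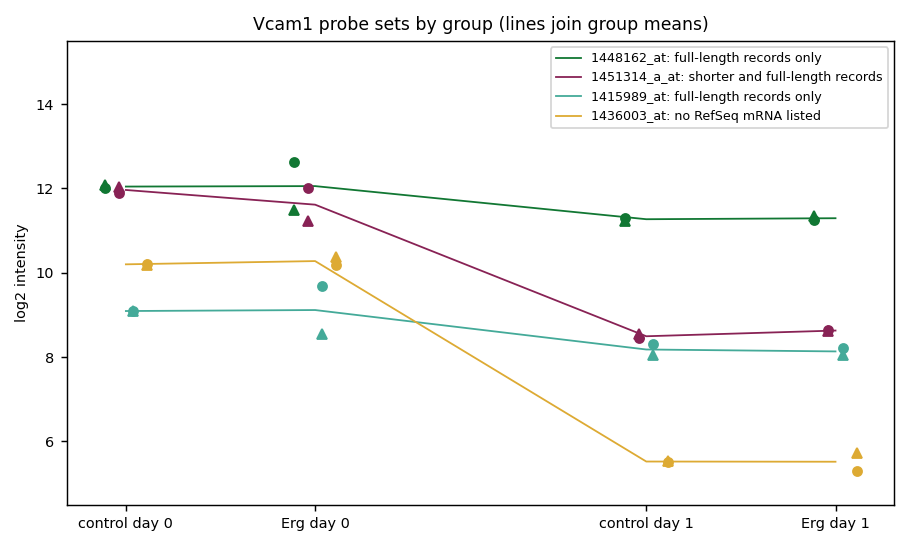
Log2 intensity (y axis) of the 4 Vcam1 probe sets on each array, by group (x axis). Circles are replicate 1, triangles are replicate 2 and lines join group means; the legend gives the transcript records that the array's annotation lists. The sets 1451314_a_at and 1436003_at have differences of -3.47 and -4.67 between the control days, and the other 2 of -0.77 and -0.91.

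Icam1, a cell surface ligand of leukocyte integrins and another NF-kB target, was among the dim members and lay below the array median on 7 of 8 arrays. Its levels were 6.12 and 6.06 in control and 5.79 and 6.78 in Erg cultures on day 0, and 5.50 and 5.40 in control and 5.47 and 5.55 in Erg cultures on day 1. Every array of day 0 was above every array of day 1. The differences of -0.64 (SE 0.29, limma adjusted p = 0.159) and -0.77 (SE 0.29, adjusted p = 0.165) missed the threshold. The control difference passed without either Erg array of day 0 (adjusted p = 0.00657), and the Erg difference was -1.27 (adjusted p = 0.00154) without Erg day 0 replicate 1 and -0.28 (adjusted p = 0.225) without replicate 2.

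The question the plasmids address is what Erg-010 changes in these cells. On day 0, 0 of the 20 member probe sets differed between the arrays labelled Erg and the controls (limma, adjusted p of at least 0.802), and 0 had an unadjusted p under 0.05, against 0% and 5.43% of all probe sets. The differences ran from -0.35 for Vcam1 1451314_a_at to 0.44 for Rela, and all 20 of the 95% intervals lay within 1 log2 unit of 0, between -0.92 and 0.99. The fit assumes the same spread in every group, so these intervals may be too narrow where the Erg day 0 arrays lay far apart. In 5 probe sets both Erg arrays lay above both controls (13.6% of all did), namely those of Rela and Relb, Nfkb2 1429128_x_at and Nfkbia 1438157_s_at and 1420089_at, and in 0 both lay below (17.6% of all).

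The Erg arrays of day 0 differed from each other more than the arrays of any other group did. Their median absolute gap over the 20 probe sets was 0.282, against 0.0516 between the control arrays of day 0, 0.102 between those of day 1 and 0.0634 between the Erg arrays of day 1. Replicate 2 was lower than replicate 1 in 15 of 20 member probe sets and in 55.7% of all probe sets. The widest gaps were in the adhesion genes: replicate 2 was above replicate 1 for Icam1, at 6.78 against 5.79, and below it for Vcam1 1448162_at, at 11.49 against 12.62. Without replicate 1 the Icam1 difference from the controls was 0.69 (adjusted p = 0.0389) and that of Vcam1 1451314_a_at was -0.73 (adjusted p = 0.037), which made 2 calls among the members, where 7.54% of all probe sets were called. Without replicate 2 these differences were -0.31 and 0.04, and 0 members passed.

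**Figure D4:**
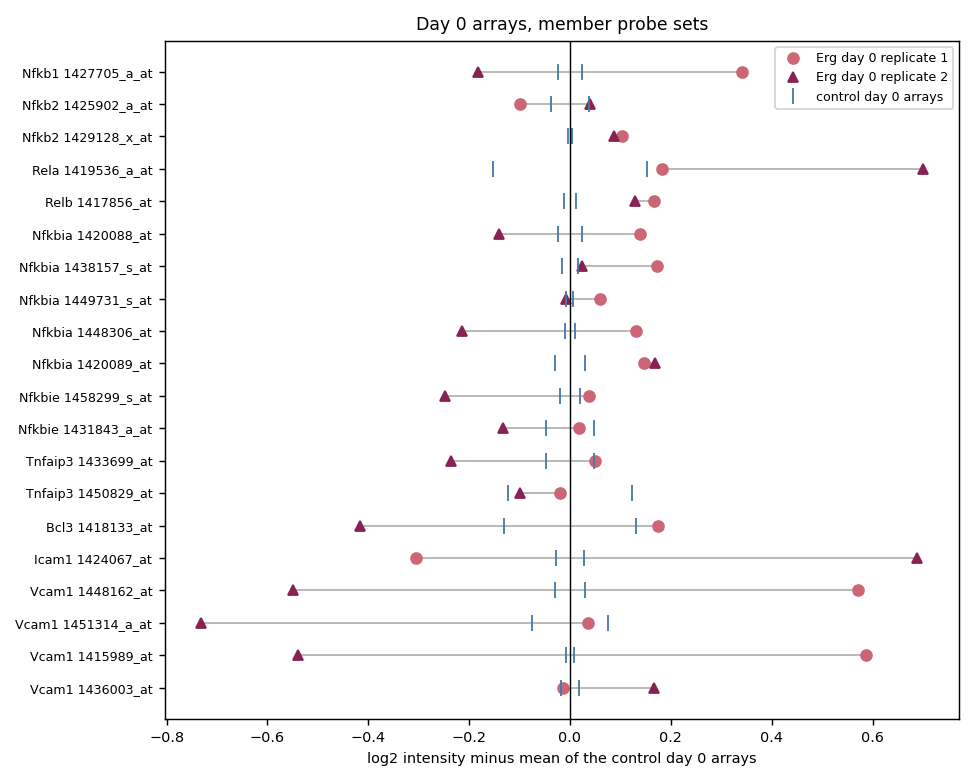
Log2 intensity minus the mean of the control day 0 arrays (x axis) for each member probe set (y axis) on the Erg day 0 arrays (circle replicate 1, triangle replicate 2, joined by a grey line), with the control arrays as blue ticks. Replicate 2 lies left of replicate 1 in 15 of 20 probe sets and far to its right for Icam1 and Rela.

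On day 1, with the Col2 promoter, 0 of 20 member probe sets differed between Erg and control (limma, adjusted p = 1) and 0 had an unadjusted p under 0.05, against 0% and 1.37% of all probe sets. The differences ran from -0.20 for Nfkbie 1458299_s_at to 0.33 for Rela, with all 20 intervals between -0.85 and 0.88. Both Erg arrays lay above both controls in 7 probe sets (19% of all did) and below them in 2 (12.6% of all). Rela and Relb were above the controls on both days, Rela by 0.44 and 0.33 and Relb by 0.15 and 0.16 on the log2 scale, without passing the test. Single arrays set these sizes: on day 0 the Rela difference was 0.18 without Erg day 0 replicate 2 and 0.70 without replicate 1, and on day 1 the differences were 0.55 for Rela and 0.29 for Relb without control day 1 replicate 1, and 0.10 and 0.03 without its replicate 2. The change over the day in Erg cultures minus that in control cultures was tested directly. It passed for 0 members (limma adjusted p 0.974 to 0.998), and for 0% of all probe sets. Here too 0 members had an unadjusted p under 0.05, against 2.44% of all probe sets. Its largest value was 0.48 (SE 0.34) for Vcam1 1451314_a_at. That value was 0.10 once Erg day 0 replicate 2 was left out and was 0.87 once replicate 1 was. The 20 intervals lay between -1.20 and 1.29, where both extremes were from Vcam1 probe sets, and 16 lay within 1 log2 unit of 0. They too assume the same spread in every group. For each probe set, differences inside its own interval between the 2 kinds of culture are not excluded. In the authors' deposited table, q-values under 0.05 were given to 15 member probe sets between the control days (39.2% of all), 11 between the Erg days (12.5% of all), and 0 for Erg against control on either day or for the interaction.

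The rest of the pathway was read from lists that, like the members, were chosen with earlier results of these data known. Of their 88 genes 87 were measured (not Tnfsf12), each given by its highest probe set. Over all 20680 symbols read that way, 11% rose and 9.26% fell between the control days, with a median difference of -0.15. Of 5 other subunits and IkB proteins 0 rose and 3 fell: Rel, the c-Rel subunit (-0.82), Nfkbiz, which encodes IkB zeta (-1.14), and Nfkbib, which encodes IkB beta (-0.63). Of 7 ligands 0 rose and 2 fell, Tnfsf11, which encodes RANKL (-2.71), and Ltb, which encodes lymphotoxin beta (-0.60). On day 1 the Tnfsf11 mean was 4.37 in control and 4.32 in Erg cultures, below the arrays' first quartiles of 5.27 to 5.30. The fall of Tnfsf11 thus ends at the dim end of the scale. Its difference between the Erg days was -1.14 (SE 0.69, limma adjusted p = 0.349). Of 11 receptors 0 rose and 3 fell, the TNF receptor Tnfrsf1b (-0.94), the receptor for bacterial lipopeptides Tlr2 (-1.43) and Cd40 (-0.44). The medians of these 3 lists were -0.63, -0.52 and -0.44.

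Next come the genes between receptor and inhibitor, then target and adhesion genes. Of 11 kinases and scaffold genes 1 rose, Tab3, a partner of the kinase TAK1 (1.17), and 0 fell, with a median difference of 0.07. The next smallest p there was that of Ikbke, an IkB kinase relative (0.58, limma adjusted p = 0.0537). Of 19 adaptors and ubiquitin enzymes, 1 rose, the kinase Irak1 (0.63), and 2 fell, Irak2 (-0.67) and the adaptor Myd88 (-0.56), with a median of -0.20. Of 16 other target genes 0 rose and 3 fell, the interferon regulatory factor Irf1 (-0.98), the AP-1 subunit Junb (-1.83) and Ptges, a prostaglandin E synthase (-0.79), with a median of -0.66. Of 18 other adhesion molecules 3 fell, Alcam (-2.99), Selp (-1.52) and F11r (-0.80), and 1 rose, Ncam1 (1.00). In all, 16 of the 87 fell and 3 rose between the control days, and differences between the lists were not tested. Between the Erg days 5 fell, Nfkbiz (-1.47), Tnfrsf1b (-1.18), Irf1 (-0.93), Alcam (-2.46) and the sensor of double-stranded RNA Tlr3 (-1.26), and 1 rose, Ncam1 (1.19), against 1.88% and 6.18% of all symbols. Tlr3 had a difference of -0.52 (adjusted p = 0.115) between the control days and was named after its values had been seen. No list gene passed the test for Erg against control on either day, with 0% of all symbols called.

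**Figure D5:**
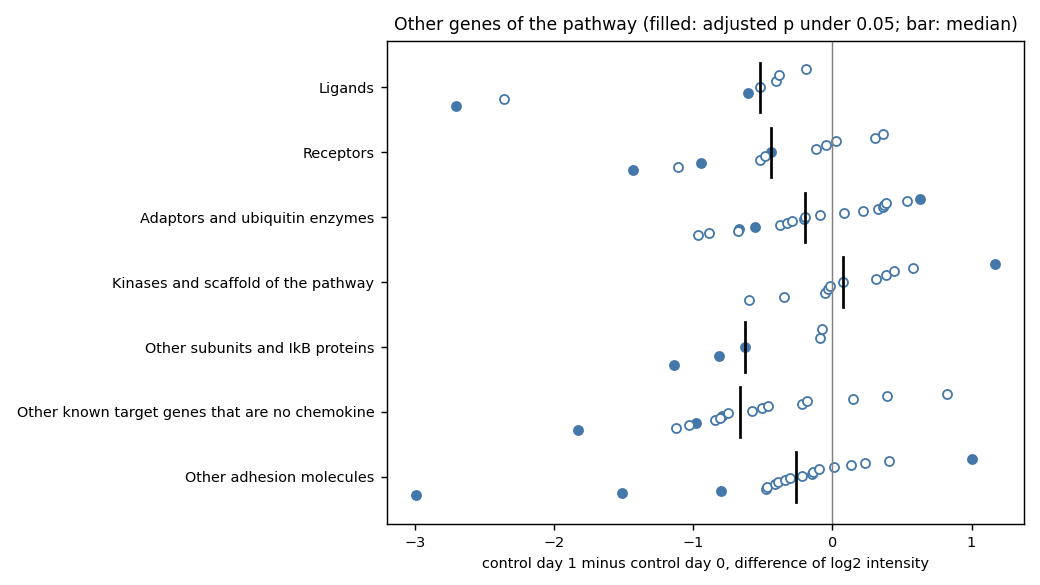
Difference of log2 intensity between control day 1 and control day 0 (x axis) for each gene of the 7 other pathway lists (y axis), 1 point a gene by its highest probe set. Filled points have a limma adjusted p under 0.05 and black bars are list medians. Kinases and scaffold genes centre at 0.07 and the other 6 medians lie below 0.

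Some markers of other cells were lower on day 1 as well, set here beside the 9.26% of all symbols that fell and the 11% that rose between the control days. Leukocyte markers had array means of 6.52 to 6.73 in control cultures on day 0 and 6.03 to 6.11 on day 1, with 2 of 11 fallen, Cd68 (-1.60) and Lyz2 (-0.66), 0 risen and 2 below every array's first quartile. In Erg cultures their means were 6.50 to 6.61 and then 6.12 to 6.16, and 1 of 11 passed, Cd68 (-2.09). Endothelial markers had means of 5.81 to 6.01 and then 5.50 to 5.71, with 1 of 8 fallen, Tie1 (-0.62), and 0 risen. On every array 2 of the 8 lay below the first quartile, and Tie1 was 1 of these, so its fall lies at the dim end of the scale. Of 4 epithelial markers Krt18 fell (-0.74) and 0 rose. Tek of the endothelial and Epcam of the epithelial list had differences of 0.53 and 0.33 that did not pass. Of 6 cartilage markers Sox9 rose (1.44) and 0 fell, with 4 differences positive. Acan (-0.38) and Matn1 (-0.08) of that list had negative differences that did not pass. Of 9 mesenchymal and fibroblast markers Pdgfrb rose (0.81) and 0 fell, with 7 differences positive. Col1a1 (-0.56) and Twist1 (-0.14) of that list had negative differences that did not pass. The part of other cells in the members' falls was not tested.

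For each member that fell by its highest probe set, the 3 genes with the most similar profile over the 8 arrays were taken by Pearson's r on log2 levels. Only symbols whose SD over the arrays was at least the member's were compared, 6265 for Relb, 7863 for Nfkbia, 4199 for Nfkbie and 6490 for Tnfaip3, of 20680. The most similar were Grk5 (0.988), Aqp1 (0.988) and Smpd3 (0.984) for Relb. For Nfkbia they were Mycn (0.994), Fam46a (0.990) and Cd74 (0.990), and for Nfkbie Ifi27l2a (0.991), Tm4sf1 (0.982) and Plscr1 (0.980). Tnfaip3 was most similar to Acsl4 (0.995), Socs3 (0.992) and Il13ra2 (0.992). All 12 had negative differences between the control days, from -4.36 for Mycn to -0.59 for Cd74. They were picked for likeness to a member that fell, so this direction largely follows from the choice. These likenesses share the step between the days and the same 8 arrays, and are given as a description.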

How the data were processed

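Total RNA was measured on 8 arrays in 4 groups of 2, taken from the sample labels. The deposited intensity values are on a linear scale and were made by the authors with RMA. For this step Partek GS 6.6 is named in the workbook's notes but dChip (2005) in the series text, which leaves the software unsettled. The authors' deposited fold ratios were not used, and the log2 values were computed here from the deposited intensities. The deposited p-values and q-values are the authors' own, by limma and QVALUE per those notes, and are credited where printed. The genome build of the array's alignments is not given in the sources used here.

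Intensities were taken to log2 and all 45037 probe sets were fitted with limma 3.58.1 (R 4.3.3; lmFit and eBayes over the 8 arrays, 4 residual and 2.78 prior degrees of freedom, prior SD 0.168), with Benjamini-Hochberg adjustment over all probe sets and a threshold of 0.05. An exact permutation test of 2 against 2 arrays cannot give a p under 0.333, so each adjusted p is from this fit, with limma's SE as the error of a difference. No filter was applied. Every probe set of the 10 members is named. From each other pathway list, the 2 to 4 genes with the smallest p between the control days are named. Of the marker lists, those past the threshold are named, with those of the opposite sign between the control days. The members and lists were chosen with earlier results of these data known. Array number limits the precision. Alternatives were the series value table, an intensity trend, leaving out dim probe sets, reading a symbol by 1 probe set or by the mean, a replicate block, the compared arrays alone, 2 further normalizations, array weights and each array left out.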

Additional observations from a re-analysis of the deposited data

How the results depend on the processing

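The main counts were 11 lower member probe sets in control cultures and 9 in Erg cultures. With 1 probe set per symbol they became 4 and 3 of 10 genes, where 20.6% and 8.86% of all 20680 symbols were called. With the mean of a symbol's probe sets they became 4 and 4, where 19.1% and 6.43% of all were called. Both settings tested fewer features. With the compared arrays alone the counts were 15 and 1, and 12533 and 23 of 45037 over all probe sets against 8922 and 3146; the cause was not tested. Leaving out each array in turn gave 2 to 16 in control and 2 to 13 in Erg cultures (366 to 16506 and 105 to 10337 over all probe sets), 0 to 2 for Erg against control on day 0 (0 to 3397 over all), and 0 for day 1 and the interaction. With array weights the counts were 16 and 6 (31% and 3.36% of all probe sets). The replicate numbers did not pair the samples (correlations of replicate differences between groups -0.61 to 0.32), and the replicate block gave 10 and 7 calls (15.8% and 4.84% of all), and 0 for each Erg comparison. Crossed numbers on day 0, added after seeing the data, gave 11 and 10 (21.8% and 8.22%). No call changed sign under the alternatives run. Dimmer probe sets, such as those of Icam1 and Vcam1 1436003_at on day 1, lay near the array's first quartile, and signal over background was not measured.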
